A study of Homo sapiens with 20 samples.

Results

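Gene expression was compared between 2 groups of SW1990 pancreatic cancer samples whose labels name the treatments strengthening spleen and regulating qi-flowing (here spleen-strengthening) and eliminating heat by nourishing yin (here yin-nourishing). The members are the 5 libraries of each group, 10 of the 20 in the series, and every gene was considered. SW1990 is an established human line from a metastasis of a pancreatic ductal adenocarcinoma, and the series places it in a mouse model. The other 10 libraries carry a pair of further treatments of the same kind, clearing heat and removing dampness (heat-clearing) and activating blood with removal of stasis (blood-activating), with 5 libraries each. All groups share the cell line, and each treatment is named only by a principle of traditional Chinese medicine: no herb, dose, duration or animal age is given in the sources used here. No sample is labelled untreated, so a higher value in one group is a lower value in the other and gives no direction against an untreated tumour. Whether the replicates are separate mice, tumours or cultures is not stated, so the p-values reflect only the spread among these libraries, which may be technical. In bulk RNA, fewer cells of a type and less RNA per cell cannot be told apart.

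Pancreatic ductal adenocarcinoma cells often make secreted and membrane mucins, and tumours are commonly described along an axis from a classical, glandular programme to a basal-like, squamous programme with keratins and cornified envelope proteins. Growth of such cells draws on ribosome production, mitochondrial respiration, glycolysis and the mitotic machinery. Signals from the surroundings, such as low oxygen, inflammatory cytokines and interferon, each induce a known set of target genes, and these sets were used here to describe the comparison.

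The library totals were 81.7 to 110.0 M counts (M, mega) under spleen-strengthening and 83.3 to 104.6 M under yin-nourishing. The small nuclear RNA RN7SK took 1.57 to 3.02% of the counts in the spleen-strengthening libraries and 1.81 to 2.20% in the yin-nourishing libraries, and mitochondrially encoded mRNA took 17.2 to 23.2% and 18.9 to 21.6%. RN7SK itself stood at 20505 ± 5077 CPM (counts per M counts, scaled by TMM, the trimmed mean of M-values; SD, n = 5) under spleen-strengthening and 20736 ± 1391 CPM (SD, n = 5) under yin-nourishing, a log2 difference of -0.02, and its sign changes with the upper-quartile scaling. The pair was chosen knowing that neither group holds a library with RN7SK above 5% of counts. The likeness of the groups in RN7SK was thus partly set by that choice. Ductal epithelial markers were at high levels in both groups and close to each other: the keratin KRT19 was at 875 CPM and 941 CPM, KRT7 at 128 CPM and 127 CPM, and the adhesion molecule EPCAM at 96.8 CPM and 101 CPM. Of 14 tested markers of this type, 7 were higher and 7 lower under spleen-strengthening.

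RNA assigned to marker genes of pancreatic acinar cells, which make digestive enzymes, differed most between libraries. The summed level of the 27 acinar markers was 8.69 to 89.9 CPM in the spleen-strengthening libraries and 8.49 to 1108 CPM in the yin-nourishing libraries. Yin-nourishing replicate 10 held the 1108 CPM, yin-nourishing replicate 07 held 106 CPM, and spleen-strengthening replicates 05 and 02 held 89.9 and 55.1 CPM. The remaining 6 libraries were at 8.49 to 13.99 CPM. The trypsinogen gene PRSS1 was at 129.8 CPM in yin-nourishing replicate 10, 7.73 CPM in replicate 07 and 0.406 to 0.859 CPM in the other 3 libraries of that group, against 0.308 to 1.71 CPM under spleen-strengthening. All 10 tested acinar markers were lower under spleen-strengthening, with a median log2 difference of -2.14, and without the 4 libraries above 50 CPM that median was -0.05. The part of this RNA in the other results was not tested, so counts below are also given without those 4 libraries where that matters.

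No gene passed the test. Of 20487 genes tested with the quasi-likelihood F-test of edgeR, 0 (0%) had an adjusted p under 0.05, and the smallest adjusted p was 1. At an unadjusted p under 0.05 there were 752 genes (3.67%), 360 higher (1.76%) and 392 lower (1.91%) under spleen-strengthening. With no difference in any gene, a share of about 0.05 would be expected under this p, so the 752 are no excess. limma voom also called 0 genes, with 1243 at an unadjusted p under 0.05, and DESeq2 called 3 of 20459 genes (0.0147%): SH2D5 and DNMBP-AS1 with an adjusted p of 0.0108 each, and PITX1 with an adjusted p of 0.0250. Without the 4 libraries with an acinar sum above 50 CPM, edgeR called 1 gene, the clone-named AP000944.5, with an adjusted p of 0.00599. AP000944.5 was at 0 CPM in spleen-strengthening replicate 02 and at 3.91 to 8.68 CPM in the other 4 libraries of that group, and at 0 CPM in 3 yin-nourishing libraries and 3.17 and 2.30 CPM in yin-nourishing replicates 07 and 10.

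The differences were small for well expressed genes. The median absolute log2 difference over all tested genes was 0.16 and the median signed difference was -0.00. Among 4736 genes with a mean log2 CPM of 5 or more, the 95% interval of the fold change lay within 2-fold in either direction for 4665 (98.5%), with a median standard error (SE) of 0.10 on the log2 scale. Among 9317 genes with a mean log2 CPM from 0 to 5 this held for 7322 (78.6%), with a median SE of 0.21. Below a mean log2 CPM of 0 it held for only 23 of 6434 genes (0.357%), with a median SE of 1.05, so for most rare transcripts a difference past 2-fold was neither shown nor excluded by the interval. An absolute log2 difference of 1 or more was fitted for 1493 genes (7.29%).

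**Figure D1:**
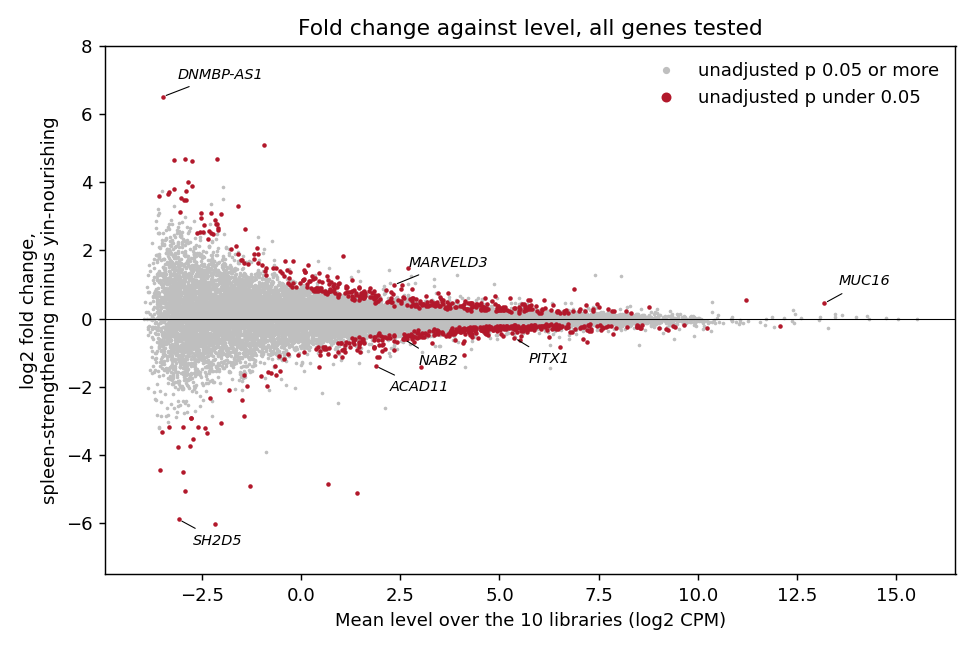
Each point is 1 of the 20487 tested genes, with its mean level over the 10 libraries (log2 CPM) on the horizontal axis and its log2 fold change, spleen-strengthening minus yin-nourishing, on the vertical axis. Points with an unadjusted p under 0.05 are red; the spread narrows from several log2 units at low levels to well under 1 at high levels, and none of the points passed adjustment.

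Complete separation of the groups, with all 5 libraries of one above all 5 of the other, occurred in 164 genes (0.801%), 84 of them higher (0.41%) and 80 lower (0.39%) under spleen-strengthening. Such separation also arises between groups drawn at random, so it is not by itself a sign of a difference. The 12 with the smallest p in each direction among named genes of sufficient level are described next by role, and none of them passed adjustment in edgeR. Whether any role is more common among them than among all genes was not tested. Of these 24, 19 overlap another annotated gene, and the strand setting used for counting is not given in the sources used here.

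PITX1 (chr5:135027735-135034813, minus strand, GRCh38 in GENCODE release 29), a homeobox transcription factor of limb and pituitary development, had the smallest p of all genes. It was at 31.1, 38.5, 31.9, 32.0 and 38.1 CPM in spleen-strengthening replicates 02, 05, 06, 07 and 08, and at 57.1, 50.7, 55.4, 40.3 and 50.6 CPM in yin-nourishing replicates 01, 04, 05, 07 and 10. Replicate 07 was the lowest yin-nourishing library, just above the highest spleen-strengthening one. The log2 difference was -0.57, with a 95% interval from -0.80 to -0.33 (edgeR unadjusted p = 0.00012, adjusted p = 1). Scaled over all 20 libraries, PITX1 was at 35.1 ± 3.76 CPM (SD, n = 5) under spleen-strengthening, 51.8 ± 6.61 CPM under yin-nourishing, 72.7 ± 34.0 CPM under heat-clearing and 80.1 ± 12.01 CPM under blood-activating. Heat-clearing libraries ranged from 29.9 to 111 CPM and so spanned both groups of the pair.

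NAB2 (chr12:57088894-57095476, plus strand), a corepressor that binds the early growth response factors EGR1 and EGR2 and is itself a known EGR target, was at 4.13 to 5.58 CPM under spleen-strengthening and 6.77 to 8.41 CPM under yin-nourishing. Its log2 difference was -0.61, with a 95% interval from -0.96 to -0.26. It overlaps the neighbouring gene STAT6. EGR1 itself was at 23.0 ± 5.86 CPM and 29.9 ± 6.59 CPM (SD, n = 5), a log2 difference of -0.38 (edgeR unadjusted p = 0.046). The paralogue NAB1 was at 196 CPM and 201 CPM.

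The sequence before the RefSeq start is shown for the gene with the smallest p and for the antisense gene close to absent in 1 group described further on, as RefSeq gives it on GRCh38.p14, 5' to 3', in lower case since neither holds the motif searched. The RefSeq start lies inside the GENCODE gene for PITX1, NAB2 and DNMBP-AS1, so these windows overlap the gene positions given from GENCODE. For PITX1 the window is cut to the 180 bases outside annotated untranslated exons.
PITX1, chr5:135034299-135034478, minus strand: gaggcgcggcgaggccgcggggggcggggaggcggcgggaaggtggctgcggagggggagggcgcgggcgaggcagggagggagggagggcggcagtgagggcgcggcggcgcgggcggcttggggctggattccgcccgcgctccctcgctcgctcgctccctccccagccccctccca
DNMBP-AS1, chr10:99926955-99927204, plus strand: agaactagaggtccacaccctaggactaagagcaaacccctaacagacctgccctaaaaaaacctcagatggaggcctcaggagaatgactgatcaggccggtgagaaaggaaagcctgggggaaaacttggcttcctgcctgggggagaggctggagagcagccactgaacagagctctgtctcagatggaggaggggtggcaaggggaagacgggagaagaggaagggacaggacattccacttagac
The 250 bases before the RefSeq start were searched on both strands for the EGR motifs GCGTGGGCG and GCGGGGGCG, and the single match found overlapped no other. NAB2 held 1 match, GCGGGGGCG at chr12:57089052-57089060, with 53 bases between it and the RefSeq start, and PITX1 and DNMBP-AS1 held 0. A match stands in 1885 of 35116 RefSeq windows of the same length (5.37%), and it describes these letters only.

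SOCS3, a feedback inhibitor of cytokine signalling through JAK and STAT proteins, was at 1.60 to 4.48 CPM under spleen-strengthening and 4.77 to 7.47 CPM under yin-nourishing, with a log2 difference of -0.89 and a 95% interval from -1.45 to -0.33. GCNT4, a glycosyltransferase that branches O-linked sugar chains, was at 1.86 to 3.13 CPM and 3.94 to 8.47 CPM, a log2 difference of -1.13 with a 95% interval from -1.65 to -0.61. ACAD11, an enzyme of fatty acid oxidation, was at 0.750 to 4.25 CPM and 4.66 to 10.5 CPM, a log2 difference of -1.39. ACAD11 is among the genes that overlap others, so its reads could be split between them.

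Several of the lower genes serve mitochondrial or ribosomal production. TBRG4, a mitochondrial RNA-binding protein, was at 22.1 ± 1.14 CPM under spleen-strengthening and 29.4 ± 2.70 CPM under yin-nourishing (SD, n = 5), with a log2 difference of -0.41. MRPL32, a protein of the large mitochondrial ribosomal subunit, was at 16.4 ± 0.842 CPM and 21.7 ± 1.86 CPM, also -0.41. RPF1 and RBM19, which act in the maturation of ribosomal RNA, differed by -0.45 and -0.78. OAZ1, the antizyme that limits polyamine synthesis, was at 54.0 to 68.5 CPM and 69.4 to 78.6 CPM. The lipid-binding OSBP2 (-0.46) and CCDC127 (-0.55) complete the 12.

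Genes higher under spleen-strengthening included adhesion and junction proteins. MARVELD3, a membrane protein of tight junctions, was at 10.6, 5.33, 7.001, 8.66 and 4.79 CPM in spleen-strengthening replicates 02, 05, 06, 07 and 08, and at 3.32, 3.32, 3.85, 4.76 and 3.11 CPM in yin-nourishing replicates 01, 04, 05, 07 and 10. The groups came within a small gap of each other, and the log2 difference was 0.99 with a 95% interval from 0.48 to 1.49. LPP, a focal adhesion protein, was at 167 to 201 CPM and 141 to 155 CPM, a log2 difference of 0.28. PECAM1, the endothelial adhesion molecule also known as CD31, was at 11.7 to 20.1 CPM and 7.64 to 10.7 CPM, a log2 difference of 0.57. Of 7 tested endothelial markers, 4 were higher and 3 lower, and PECAM1 alone had an unadjusted p under 0.05. CDH5 was at 0.516 CPM and 0.510 CPM, VWF at 1.68 CPM and 2.18 CPM, and ENG at 4.69 CPM and 4.10 CPM.

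The remaining higher genes have varied roles. LINC01184, a long noncoding RNA, was at 12.3 to 16.1 CPM under spleen-strengthening and 8.79 to 10.9 CPM under yin-nourishing, a log2 difference of 0.56 with a 95% interval from 0.28 to 0.83. ATXN7, a subunit of the SAGA chromatin complex, was at 37.4 to 39.5 CPM and 27.7 to 33.6 CPM. SHPRH, a ubiquitin ligase of DNA damage tolerance, was at 35.6 to 41.6 CPM and 28.0 to 35.1 CPM. ADPRH, an ADP-ribosylarginine hydrolase, differed by 0.78, FAM20A, a pseudokinase of enamel formation, by 1.02, and ACAD8, an enzyme of valine breakdown, by 0.51. ADGRA2, a receptor of Wnt7 signalling, differed by 1.42 at 1.36 to 3.22 CPM against 0.266 to 1.04 CPM. The co-chaperone DNAJB7 (0.89) and LINC01963 (0.53) complete this group.

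**Figure D2:**
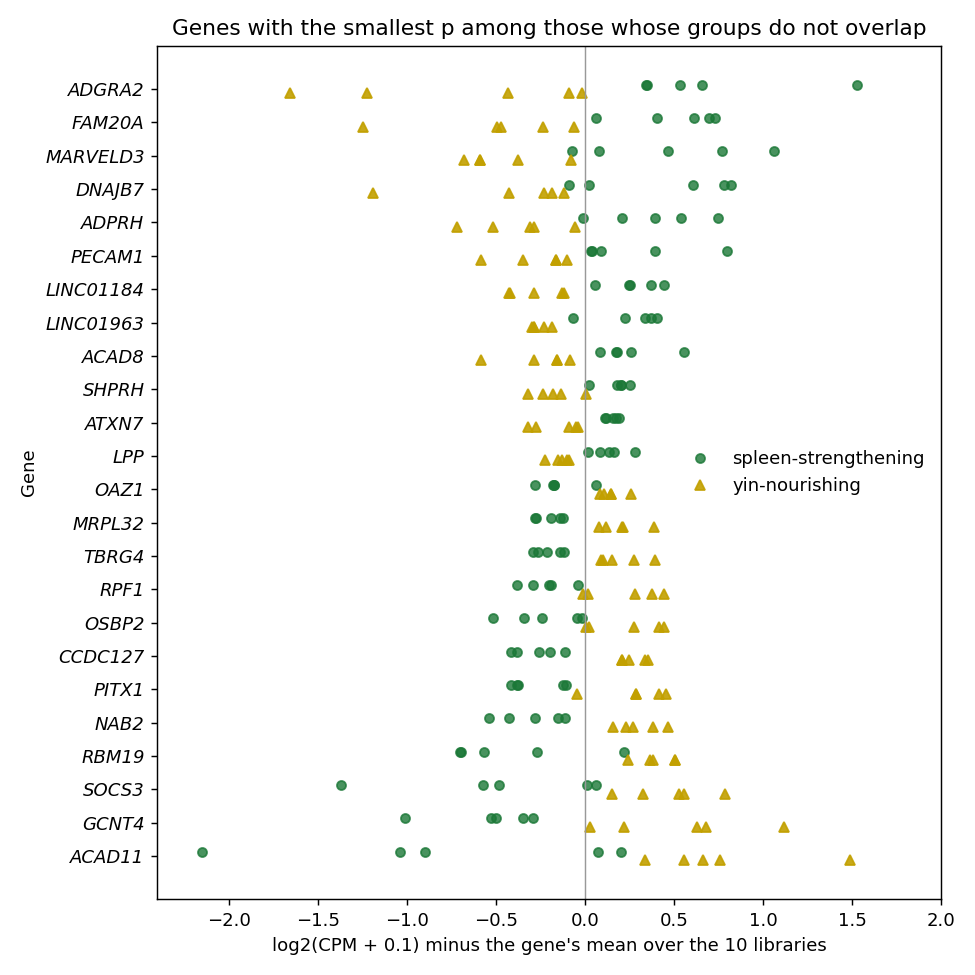
Each row is 1 of the 24 named genes whose groups do not overlap, and each point 1 library, with log2(CPM + 0.1) minus the gene's mean over the 10 libraries on the horizontal axis. Circles are the 5 spleen-strengthening and triangles the 5 yin-nourishing libraries; the 12 upper genes are higher and the 12 lower genes lower under spleen-strengthening, and in many rows the nearest points of the groups almost touch.

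A few rare transcripts were close to absent in 1 group. With at most 5 counts summed over 1 group and at least 10 in every library of the other, 3 of 60656 genes met this description (0.00495%), 2 near absent under spleen-strengthening and 1 under yin-nourishing. The rule was set after the values of SH2D5 were known, and since it chose the genes by their counts, the ratios and intervals given for them are a description of the deposited counts and no test. The intervals treat each count as a separate read, which was not checked. SH2D5, an adaptor protein with an SH2 domain, held 4, 0, 0, 0 and 0 counts in spleen-strengthening replicates 02, 05, 06, 07 and 08 and 64, 40, 17, 59 and 77 counts in yin-nourishing replicates 01, 04, 05, 07 and 10. All its spleen-strengthening counts came from 1 library. Heat-clearing libraries held 28 to 105 counts of SH2D5 and blood-activating libraries 15 to 82.

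SCNN1G (chr16:23182715-23216883, plus strand), the gamma subunit of the epithelial sodium channel, held 5, 0, 0, 0 and 0 counts under spleen-strengthening, again all in replicate 02, and 31, 26, 17, 20 and 18 counts under yin-nourishing. The summed count was 21.8 times as high under yin-nourishing, with an exact 95% interval from 9.05 to 68.3 that covers counting error only. In the other groups, 1 heat-clearing library was at 0 and the remaining libraries were at 18 counts or more: heat-clearing libraries held 0 to 64 counts of SCNN1G and blood-activating libraries 32 to 134. In the edgeR test SCNN1G had an adjusted p of 1, and in DESeq2 an adjusted p of 0.627.

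DNMBP-AS1 (chr10:99927010-99958381, plus strand), an antisense RNA that overlaps the scaffold gene DNMBP, showed the opposite order. It held 40, 40, 16, 19 and 35 counts in the spleen-strengthening libraries and 0, 0, 1, 0 and 0 counts in the yin-nourishing libraries, the 1 count being in replicate 05. The summed count was 154 times as high under spleen-strengthening, with an exact 95% interval from 27.3 to 6141 that covers counting error only. DNMBP-AS1 ranged from 0 to 88 counts in the heat-clearing libraries and from 4 to 24 in the blood-activating libraries. Its reads and those of DNMBP cannot be told apart where the genes overlap unless counting used strand. ANGPTL2, a secreted angiopoietin-like protein, came close to the same pattern, at 0.178 to 1.18 CPM under spleen-strengthening and 0 to 0.0566 CPM under yin-nourishing (DESeq2 adjusted p = 0.0801).

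**Figure D3:**
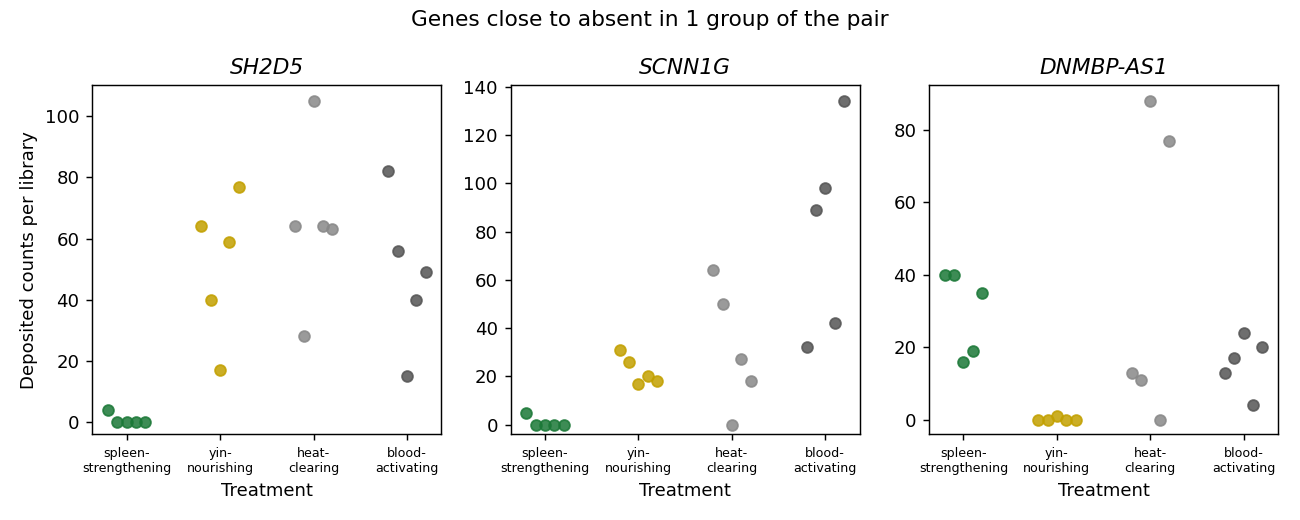
Deposited counts per library (vertical axis) of SH2D5, SCNN1G and DNMBP-AS1 in the 4 treatments (horizontal axis), with 1 point for each of the 5 libraries of a group. SH2D5 and SCNN1G lie at 0 to 5 counts under spleen-strengthening and at 17 or more under yin-nourishing, DNMBP-AS1 at 16 or more and at 0 to 1. Under heat-clearing and blood-activating, SH2D5 lies at 28 to 105 and 15 to 82 counts, while SCNN1G and DNMBP-AS1 each reach 0 in a heat-clearing library.

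Gene lists were described by how many members lay on each side and by their median, beside 49.1% of all tested genes higher under spleen-strengthening and a median log2 difference of -0.00. List members are mostly well expressed protein-coding genes, of which fewer lay on the higher side: 43.2% of protein-coding genes with a mean log2 CPM of 0 or more, and 39.5% and 40.5% of all genes in the upper 2 of 5 bins of level. No member of any of the 48 lists passed adjustment in edgeR. Among the 43 lists with at least 5 tested members, there was no list whose 5 spleen-strengthening libraries lay wholly on 1 side of the 5 yin-nourishing libraries in the median level of its members. The median kept its sign under all 14 other settings (scalings, fits and libraries left out) in 25 lists, lower under spleen-strengthening in 21 and higher in 4. The 14 were RLE and upper-quartile scaling, all 20 libraries in 1 fit, each library left out, and the 4 acinar-rich libraries left out. The replicate number as a block, covariates, other filters, DESeq2, limma voom and other subsets of libraries were not among them. The ranges given below therefore leave these out.

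All 40 tested cytosolic ribosomal protein genes were lower, with a median of -0.16 and a range of that median from -0.21 to -0.12 over the settings. At an unadjusted p under 0.05 there were 8 of the 40, all lower, beside 1.91% of all tested genes lower at that p, and RPL23 had the smallest p of them, at 96.2 to 116 CPM against 115 to 151 CPM with a log2 difference of -0.31. The 1.91% includes genes of low level. Among 12106 protein-coding genes with a mean log2 CPM of 0 or more, 540 had such a p in either direction. Whether the 8 genes vary together over the libraries was not tested, so their number is no test of the list. RPL11 was at 45.2 CPM and 56.0 CPM, and RPL37 at 34.6 CPM and 46.4 CPM. The libraries overlapped widely: the median member stood from -0.17 to 0.07 (log2, against its own mean) under spleen-strengthening and from -0.15 to 0.18 under yin-nourishing.

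Of 40 nuclear-encoded subunits of the respiratory chain and ATP synthase, 38 were lower, with a median of -0.13 (range -0.15 to -0.10). SDHB, the iron-sulphur subunit of complex II, was at 25.0 to 33.3 CPM under spleen-strengthening and 29.7 to 38.6 CPM under yin-nourishing. COX7C of complex IV was at 53.6 to 70.7 CPM and 73.1 to 76.8 CPM, with no overlap, and UQCRB of complex III differed by -0.23. The 13 mitochondrially encoded mRNAs went the other way by a small amount, 11 higher and 2 lower with a median of 0.03, and that median changes sign when spleen-strengthening replicate 06 or 08 is left out. Of 19 genes of glycolysis and lactate export, 17 were lower with a median of -0.10 (range -0.24 to -0.06) and 0 at an unadjusted p under 0.05; GAPDH was at 5298 CPM and 5749.9 CPM, and TPI1 at 585 CPM and 658 CPM.

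Mitotic genes lay mostly on the lower side and replication genes mostly on the higher side. Of 40 genes of mitosis and the G2/M phase, 36 were lower with a median of -0.09 (range -0.18 to -0.02). PTTG1, the securin that delays the separation of sister chromatids, was at 46.4 to 59.4 CPM under spleen-strengthening and 54.8 to 79.1 CPM under yin-nourishing. CCNB1, the mitotic cyclin, differed by -0.25, KIF20A, a kinesin of cytokinesis, by -0.23, and the proliferation marker MKI67 was at 181 CPM and 178 CPM. Of 38 genes of DNA replication and licensing, 27 were higher with a median of 0.05, which changes sign without yin-nourishing replicate 10, the library with the most acinar RNA, and without the 4 acinar-rich libraries. Only MCM2 of this list had an unadjusted p under 0.05, and it was lower, at 11.8 to 18.2 CPM against 17.6 to 20.6 CPM, with a log2 difference of -0.36, or -0.17 without the 4 acinar-rich libraries.

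Most lists of genes induced by inflammatory, growth factor and stress signals had more lower than higher members under spleen-strengthening. The p53 targets went the other way. Of 20 tested, 14 were higher with a median of 0.03, which changes sign without spleen-strengthening replicate 06. Of 32 genes of the NF-kB pathway, 26 were lower with a median of -0.16 (range -0.21 to -0.13). IL1RN, the secreted antagonist of the interleukin-1 receptor, was at 80.6, 109, 93.0, 87.4 and 115 CPM in spleen-strengthening replicates 02, 05, 06, 07 and 08, and at 132, 137, 108, 117 and 148 CPM in yin-nourishing replicates 01, 04, 05, 07 and 10. The groups overlapped in part, and the log2 difference was -0.40 with a 95% interval from -0.64 to -0.17. IL1B, the cytokine it opposes, was at 12.7 to 24.0 CPM and 18.1 to 36.2 CPM, a log2 difference of -0.53, or -0.34 without yin-nourishing replicate 04.

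Of 35 immediate early genes, 26 were lower with a median of -0.09 (range -0.17 to -0.05), and all 6 at an unadjusted p under 0.05 were lower (1.91% of all tested genes were): NAB2, EGR1, IER2, IER5, DUSP5 and KLF10. Among 12106 protein-coding genes with a mean log2 CPM of 0 or more, 540 had such a p in either direction. Whether these 6 genes vary together was not tested. DUSP5, a phosphatase that switches off ERK in the nucleus, was at 48.7 to 79.1 CPM and 67.2 to 118 CPM. KLF10, a zinc finger factor induced by TGF-beta, was at 59.7 to 72.5 CPM and 72.4 to 91.4 CPM. FOS stood on the other side, at 31.5 CPM and 25.8 CPM (0.28), and JUN was at 21.1 CPM in both.

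Of 30 genes of amino acid supply and of the integrated stress response, 10 were higher and 20 lower with a median of -0.09. Among the protein-coding genes described above, 43.2% were higher. PPP1R15A, which returns the translation factor eIF2 to its active state, was at 14.98 to 21.6 CPM under spleen-strengthening and 21.2 to 33.2 CPM under yin-nourishing, a log2 difference of -0.56. ATF4, the transcription factor of this response, was at 142 CPM and 163 CPM (-0.20), while asparagine synthetase, ASNS, a target of ATF4, was at 5.55 ± 4.76 CPM and 2.12 ± 0.977 CPM (SD, n = 5; 1.38). Of 39 interferon-stimulated genes, 33 were lower with a median of -0.13 (range -0.23 to -0.05); IFIT1 was at 106 CPM and 132 CPM, and APOL1 at 25.5 CPM and 32.4 CPM. Of 20 genes of antigen presentation by MHC class I, 17 were lower, while the peptide-trimming enzyme ERAP1 was higher, at 58.3 ± 9.21 CPM against 43.7 ± 11.2 CPM (SD, n = 5), with a log2 difference of 0.41, or 0.65 without the 4 acinar-rich libraries. Of 25 antioxidant targets of NRF2, 19 were lower, while GCLM, the modifier subunit of glutathione synthesis, was at 16.5 to 27.8 CPM against 13.6 to 18.2 CPM (0.47).

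Mucins were mostly higher and squamous genes mostly lower under spleen-strengthening. Of 13 tested mucins, 11 were higher with a median of 0.33 (range 0.13 to 0.75). MUC16, a membrane mucin that carries the antigen CA125, was at 13242, 7411, 10951, 11202 and 12747 CPM in spleen-strengthening replicates 02, 05, 06, 07 and 08, and at 8889, 7001, 7017, 10715 and 7113 CPM in yin-nourishing replicates 01, 04, 05, 07 and 10. Replicate 05 was the low library of the first group and replicate 07 the high library of the other, and the log2 difference was 0.45 with a 95% interval from 0.11 to 0.79. The gel-forming MUC5AC was at 2946 ± 829 CPM and 2019.5 ± 427 CPM, and MUC6 at 8.02 ± 2.64 CPM and 4.37 ± 1.22 CPM (SD, n = 5). MUC1, carried by most ductal epithelia, was at 168 CPM and 156 CPM. The median mucin ranged from -0.57 to 0.67 over the spleen-strengthening libraries and from -0.68 to 0.39 over the yin-nourishing libraries.

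Of 14 tested keratinocyte and cornified envelope markers, 12 were lower with a median of -0.70 (range -0.95 to -0.39). SPRR2A, a small proline-rich protein of the cornified envelope, was at 3.81, 8.96, 7.53, 3.51 and 3.94 CPM in spleen-strengthening replicates 02, 05, 06, 07 and 08, and at 15.7, 20.4, 3.51, 14.9 and 19.5 CPM in yin-nourishing replicates 01, 04, 05, 07 and 10. Yin-nourishing replicate 05 was as low as the lowest spleen-strengthening library, and the log2 difference was -1.42. The more abundant SPRR1B was at 856 CPM and 1216 CPM and SPRR3 at 584 CPM and 887 CPM, each with an unadjusted p above 0.05. Of 30 genes of the basal-like tumour subtype, 25 were lower with a median of -0.22 (range -0.29 to -0.17). KRT16 was at 81.1 CPM and 101 CPM, KRT5 at 375 CPM and 468 CPM, and the collagenase MMP1, from the list of matrix metalloproteinases, at 299 ± 136 CPM and 512 ± 193 CPM (SD, n = 5). Of 23 genes of the classical subtype, 13 were higher with a median of 0.05, which changes sign without spleen-strengthening replicate 07; the secreted TFF1 was at 309 CPM and 254 CPM. SPRR1A, SPRR1B and SPRR3 stand in both squamous lists, so these lists are not independent.

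**Figure D4:**
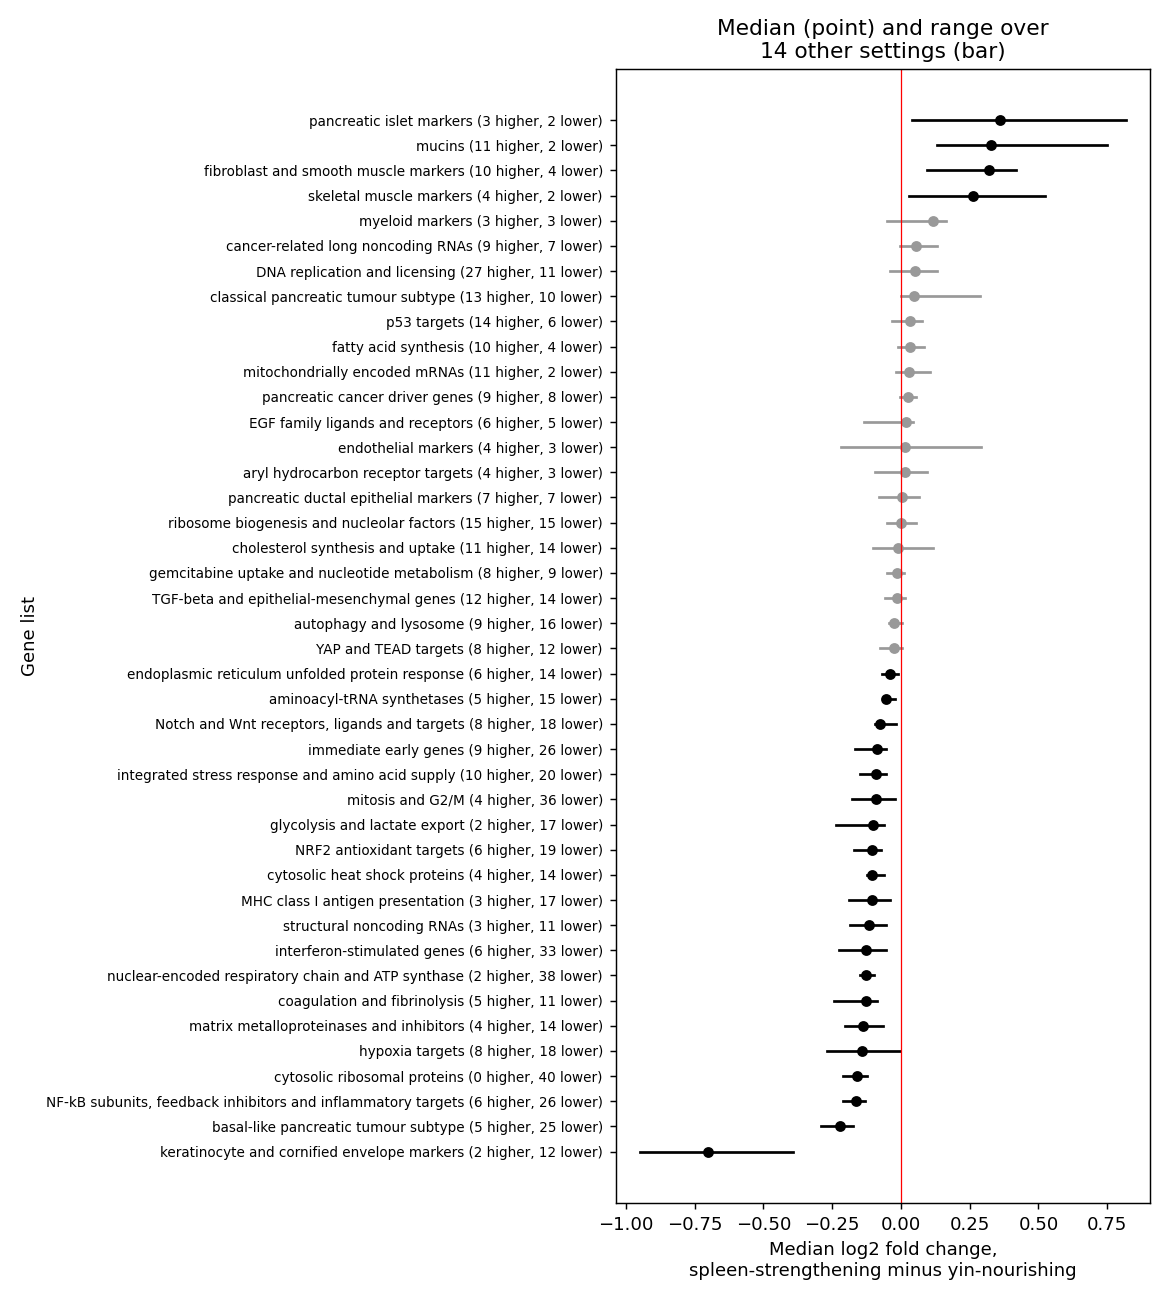
Each row is 1 gene list with its number of higher and lower members, the point is the median log2 fold change, spleen-strengthening minus yin-nourishing (horizontal axis), and the bar is the range of that median over 14 other settings. Black marks the lists whose median kept its sign throughout and grey the others; most lists lie within 0.25 of 0, the keratinocyte list stands lowest at -0.70, and acinar markers, with a median of -2.14, are left out of the plot.

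**Figure D5:**
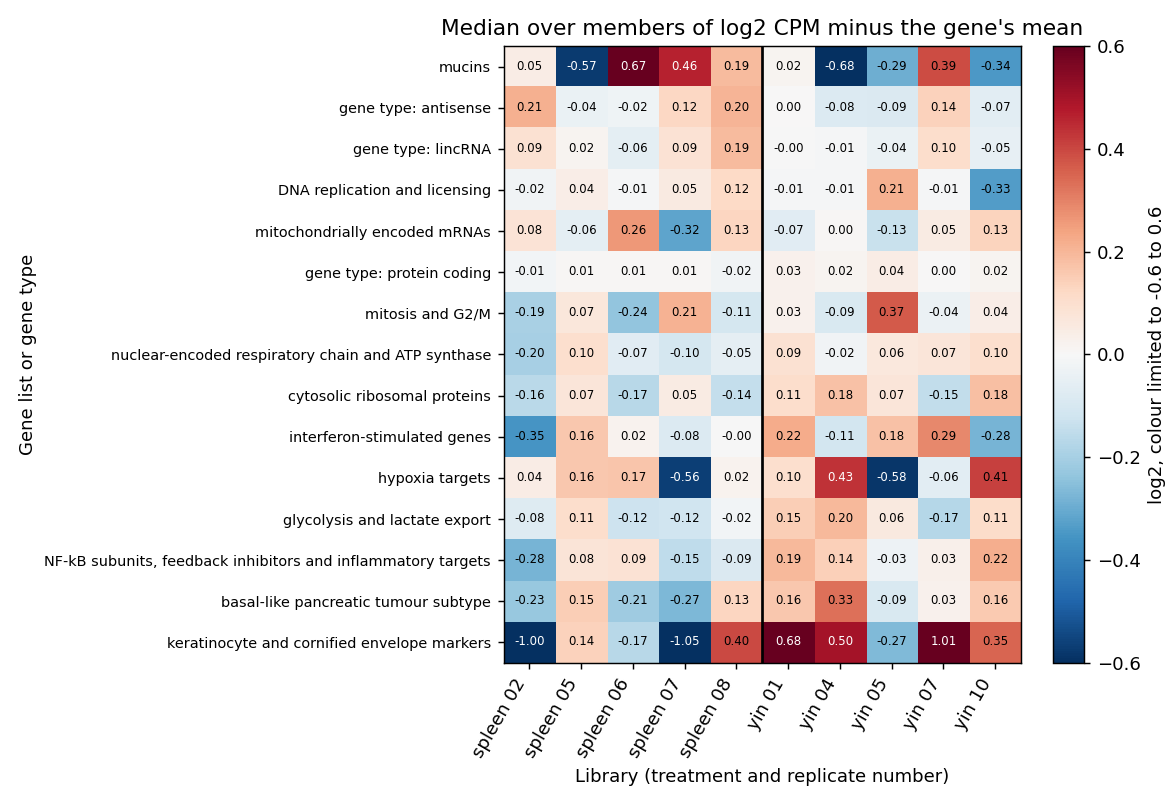
Each cell gives the median over a list's members of log2 CPM minus each gene's mean over the 10 libraries, for 15 lists or gene types (rows) in the 10 libraries (columns; the black line parts the treatments). Red is above and blue below the mean, with colours limited to 0.6; no row separates the treatments, and spleen-strengthening replicate 07 and yin-nourishing replicate 05 stand lowest in hypoxia targets and highest in mitosis.

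Hypoxia targets varied widely among the libraries of each treatment. Of 26 tested, 18 were lower under spleen-strengthening with a median of -0.14, but the range over the settings reached from -0.27 to -0.00. Spleen-strengthening replicate 07 and yin-nourishing replicate 05, the only libraries of the pair whose titles end in the letter C rather than b, stood at -0.56 and -0.58, against -0.06 to 0.43 in the other 8. NDRG1, a stress gene induced by low oxygen, was at 102 and 152 CPM in these 2 libraries and at 257 to 450 CPM in the other 8. EGLN3, a prolyl hydroxylase that marks HIF for removal, was at 19.4 and 32.2 CPM against 49.2 to 118 CPM, and ERO1A, an oxidase of protein folding, at 518 and 557 CPM against 910 to 1499 CPM. The same 2 libraries had the highest median of mitotic genes, 0.21 and 0.37 against -0.24 to 0.07, the lowest median of mitochondrially encoded mRNAs, -0.32 and -0.13 against -0.07 to 0.26, and the steepest positive slope of expression on GC content, 0.083 and 0.121 log2 per 10% against -0.074 to 0.065. The labels do not say what the letter means, and its part in these values was not tested. With the letter as a covariate edgeR called 0 genes, with 954 at an unadjusted p under 0.05, and in the 8 b libraries alone it called 0, with 736.

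Human genes that mark the other cell types of a tumour sample were mostly at low levels. Since the line is human and the model a mouse, host cells would be of mouse. How mouse reads were handled is not given, so these values do not measure host cells. Of 14 fibroblast and smooth muscle markers, 10 were higher under spleen-strengthening with a median of 0.32 (range 0.10 to 0.42), and their summed level overlapped, at 225 to 299 CPM and 211 to 287 CPM, most of it from COL6A1 (160 CPM and 178 CPM), which was lower. COL1A1 was at 29.6 CPM and 22.4 CPM, and COL3A1 at 1.80 CPM and 0.854 CPM. The summed endothelial level was 22.0 to 31.2 CPM against 19.9 to 23.4 CPM, and PECAM1 was at a mean of 14.2 CPM and 9.56 CPM. The summed myeloid level was 63.5 to 94.4 CPM against 77.3 to 131 CPM, led by CD68 (43.6 CPM and 52.8 CPM), while CSF1R was at 0.456 CPM and 0.310 CPM. Of 16 lymphoid markers, 5 were at 0 in all 10 libraries and 4 were tested. No red blood cell marker was tested, and 5 of 8 were at 0 throughout. The source of these reads and their part in the other results were not tested.

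The share of genes on the higher side differed by kind of gene. Among genes with a mean log2 CPM of 0 or more, 43.2% of 12106 protein-coding genes were higher under spleen-strengthening, with a median of -0.02. In contrast 61.4% of 427 antisense genes were higher, with a median of 0.12 (range 0.06 to 0.18 over the 14 settings), and 60.5% of 365 long intergenic noncoding RNAs, with a median of 0.08 (range 0.06 to 0.11). KCNQ1OT1, the antisense RNA of an imprinted region, was at 49.5 to 82.7 CPM under spleen-strengthening and 38.0 to 53.6 CPM under yin-nourishing, a log2 difference of 0.54 with a 95% interval from 0.25 to 0.83, and it overlaps KCNQ1. MALAT1 was at 6015 ± 979 CPM and 5008 ± 936 CPM, and SNHG1, a host gene of small nucleolar RNAs, was lower, at 37.9 ± 3.86 CPM and 46.9 ± 3.92 CPM (SD, n = 5). By GC content of the gene's longest annotated transcript, the share of higher genes was 54.0% in the lowest of 5 equal bins and 33.2% in the highest. The medians were 0.01 and -0.07. By length of that transcript the share was 38.9% in the shortest of 5 bins and 56.5% in the longest, with medians of -0.06 and 0.02. The part of length and GC content in the differences of the gene lists was not tested. The per-library medians of antisense genes overlapped, at -0.04 to 0.21 under spleen-strengthening and -0.09 to 0.14 under yin-nourishing.

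Genes often altered in pancreatic cancer were close in the groups. Of 17 tested, 9 were higher and 8 lower with a median of 0.02, and 0 had an unadjusted p under 0.05. SMAD4 was at 39.7 ± 2.31 CPM under spleen-strengthening and 43.3 ± 4.59 CPM under yin-nourishing, and MYC at 35.6 ± 5.33 CPM and 39.8 ± 10.4 CPM (SD, n = 5). Of 17 genes of gemcitabine uptake and nucleotide metabolism, 8 were higher and 9 lower with a median of -0.01. The lists of cholesterol synthesis (11 higher, 14 lower), ribosome biogenesis (15 and 15), TGF-beta and epithelial-mesenchymal genes (12 and 14) and autophagy (9 and 16) had medians between -0.03 and -0.00. Among their members, SMAD7, an inhibitor of TGF-beta signalling, was at 1.89 to 4.44 CPM under spleen-strengthening and 4.80 to 6.31 CPM under yin-nourishing, with a log2 difference of -0.63, or -0.39 without the 4 acinar-rich libraries.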

How the data were processed

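Total RNA was depleted of ribosomal RNA and made into directional libraries, per the labels' protocols. HISAT2, StringTie and hg38 are named in the submitters' processing notes; how strand and mouse reads were handled is not given in the sources used here. Counts per gene, as deposited, are whole numbers that differ in total between samples and fill 60656 rows. The 10 libraries of the pair were fitted alone with edgeR 4.0.16 in R 4.3.3 (minimum count 10, TMM, robust quasi-likelihood F-test, Benjamini-Hochberg adjustment over 20487 genes, threshold 0.05), which was also tested on simulated data. SE is the absolute log2 difference divided by the square root of F. DESeq2 1.42.0 and limma 3.58.1 (voom with a quality weight per library and robust moderation) were alternatives, beside other scalings, filters, covariates and libraries left out. List levels per library use log2 CPM with a prior count of 2. Positions are from GENCODE release 29, matched by symbol for 19937 of the tested genes.

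Named genes had a symbol without a dot, a mean log2 CPM of 0 or more and non-overlapping groups (12 per direction with the smallest p), or were up to 3 members per list with an unadjusted p under 0.05; NAB2, SH2D5, RN7SK and MUC16 were added. DNMBP-AS1, SCNN1G, ANGPTL2, AP000944.5 and further list members given as examples were chosen after their values were seen. The comparison, the lists and the rule were chosen with earlier results of these data known.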

Additional observations from a re-analysis of the deposited data

Results flagged for a closer look

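Each value here is the highest of 5 libraries of a group, with a gap to its nearest neighbour that takes most of the group's range (Dixon's test, 95% level). Of 166 groups checked, 11 were marked, and chance marks about 1 in 20. Marked in the spleen-strengthening group were ADGRA2 in replicate 06 (3.22 CPM), OAZ1 in replicate 05 (68.5 CPM), ATG7, an enzyme of autophagy, in replicate 07 (32.7 CPM), and the slope of expression on GC content in replicate 07 (0.0832 log2 per 10% GC). SH2D5 (0.0366 CPM) and SCNN1G (0.0457 CPM) were marked in replicate 02 because the other 4 libraries were at 0.

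Marked in the yin-nourishing group were ACAD11 (10.5 CPM) and IL1B (36.2 CPM) in replicate 04, PRSS1 in replicate 10 (129.8 CPM) with the acinar sum of that library (1108 CPM), and DNMBP-AS1 in replicate 05 (0.0119 CPM, from 1 count).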

How the results depend on the processing

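The number of genes called was 0 in edgeR with RLE and upper-quartile scaling, no filter and a strict filter, the title letter or the acinar level as a covariate, the b libraries alone, all 20 libraries in 1 fit, and the 15 libraries with RN7SK at or under 5%. With limma voom the number called was also 0. It was 3 with DESeq2 (SH2D5, DNMBP-AS1 and PITX1) and 1 in edgeR without the 4 libraries with an acinar sum above 50 CPM, a fit chosen after seeing the data (AP000944.5). Leaving out each library in turn gave from 0 to 0 calls, with 630 to 1012 genes at an unadjusted p under 0.05 and a smallest adjusted p of 0.114. With the replicate number as a block in all 20 libraries the count was 0 (607 genes at an unadjusted p under 0.05). The pair shares only the numbers 05 and 07, whose deviations from the group means correlated at -0.07 and -0.11. Both times a library whose title ends in C was set against a library whose title ends in b. These correlations therefore cannot settle what a shared number means, and the labels do not say. The block moved the log2 difference of 15 of 72 named genes by over 1.5 times, among them CCNB1 (-0.25 to -0.067), KIF20A (-0.23 to -0.049), PTTG1 (-0.34 to -0.15) and MUC16 (0.45 to 0.20). Without a filter 5333 of 38758 genes had an unadjusted p under 0.05, against 752 of 20487. Most named genes were chosen by their p in these same libraries, and none passed the threshold in the main fit. A kept sign or side of the threshold is therefore little evidence of a stable difference. Of 1652 log2 differences of the named genes recomputed, 1641 kept their direction and their side of the threshold. Those with the other sign were PRSS1 (0.032 without the 4 acinar-rich libraries, a fit that drops the library with 129.8 CPM) and RN7SK: 0.0079 with upper-quartile scaling, 0.065, 0.0069 and 0.043 without spleen-strengthening replicates 02, 05 and 08, 0.0029 without yin-nourishing replicate 05, and 0.13 without the 4 acinar-rich libraries; the cause was not tested. Leaving out single libraries moved RN7SK from -0.17 to 0.065. List medians changed sign in at least 1 of their 14 settings in 18 of 43 lists, and that of the classical subtype was 0.29 without the acinar-rich libraries. The block was not among those 14 settings. At a total depth of 81.7 to 110.0 M counts, most intervals below a mean log2 CPM of 0 extended past 2-fold, which includes the spread between libraries as well as counting error.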

Other observations

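Libraries whose titles end in C were compared over the whole series. With all 20 libraries on 1 scale, the median of hypoxia targets was from -0.70 to -0.63 in spleen-strengthening replicate 07 and yin-nourishing replicate 05, and -0.12 to 0.39 in the 5 libraries with that letter in the other 2 treatments. Mitotic genes stood at 0.26 to 0.44 in the first 2 and at -0.26 to 0.09 in those 5.

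RMRP, the RNA of ribonuclease MRP, fills 2 rows of the table. The first row held 37096 counts in yin-nourishing replicate 10 and 25350 in blood-activating replicate 06, the 2 libraries with the highest acinar sums (1108 and 1029 CPM), and at most 34 counts in the other 18. The second row held 94197 to 307404 counts in every library. What separates the rows is not given in the sources used here.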
